A study of Mus musculus with 16 samples.

Results

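The genes described here encode the aminoacyl-tRNA synthetases, the enzymes that load each tRNA with its amino acid. They are 35 of the 39179 genes counted in bone marrow derived mast cells (BMMCs), with 20 enzymes that work in the cytosol and 15 that work in mitochondria. Members were chosen by gene name as a family, and all 35 passed the filter on low counts. Lars2, the mitochondrial leucine enzyme, was left out of the list by rule, because its counts follow ribosomal RNA-like reads.

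The BMMCs were cultured for 4 weeks from bone marrow, and the donor animals were C57BL/6 males, 8 to 10 weeks old. Mice were wild type (PEP+/+) or lacked the tyrosine phosphatase PEP (PEP-/-), which Ptpn22 encodes. All cells received IgE for 3 h, at 0.05 µg/ml by the labels, a dose that the study's methods state differently. Cells of the IgE DNP group were then activated with the antigen DNP at 200 ng/ml for 1 h. The IgE DEX group was given the glucocorticoid DEX at 100 nM for 8 h, and the IgE DNP DEX group received both agents. Each of the 8 conditions had 2 replicates, 1 from a numbered and 1 from a lettered set of samples, which the study calls biological replicates. How many mice or cultures stood behind them was not stated, and the p-values measure the spread between these samples.

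Total gene counts per sample ran from 8612531 to 22143526, with a median of 12814043.5. Ptpn22 lay between 0 and 3.03 CPM (counts scaled to the size of the library, with TMM factors) in the PEP-/- samples and between 11.3 and 175 CPM in the PEP+/+ samples. Mast cell markers summed to 63200 to 104000 CPM per sample, while macrophage markers reached at most 6.52 CPM and B and T cell markers at most 0.605 CPM. Of the genes listed as megakaryocyte markers, Itga2b was at 1940 to 3920 CPM, while Pf4 reached at most 0.189 CPM. Lars2 made up 2.31% of gene counts in PEP+/+ IgE DNP replicate 1 and 1.32% in PEP-/- IgE DNP DEX replicate 2, against 0.274% to 0.582% in the other 14 libraries. Calls that were lost without these 2 libraries are named beside the results.

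A cell needs an aminoacyl-tRNA synthetase for every amino acid, and most animals keep separate nuclear genes for cytosolic and mitochondrial enzymes. The enzymes fall into structural classes I and II by the fold of their catalytic domain. Part of the cytosolic set (Eprs, Lars, Iars, Qars, Mars, Kars, Rars and Dars) is held together on scaffold proteins as the multi-synthetase complex, while the rest are free. Some genes serve more than their own class. Gars and Kars encode the cytosolic and the mitochondrial enzyme, Eprs joins glutamate and proline enzymes in a single chain, and Farsa and Farsb encode the subunits of a single phenylalanine enzyme. Mitochondria charge glutamine tRNA in steps, with Ears2 and an amidotransferase, so that they have no counterpart of Qars. Many cytosolic synthetase genes are known targets of Atf4, the transcription factor of the amino acid response, and NRF1 is a known activator of nuclear genes for mitochondrial proteins.

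The stretches around matches to the binding letters of these factors are shown because matches differed between the classes. RefSeq promoter windows of GRCm38.p6, from 250 bases before to 50 bases after the gene start, were found for 25 of the 35 members, 12 cytosolic and 13 mitochondrial. The core of the amino acid response element (TGATGNAA, searched on both strands) was present in 5 of the 12 cytosolic windows, in 0 of the 13 mitochondrial windows and in 4.51% of the windows of all 27025 genes. Matches of different motifs did not overlap in any window of a member. Each stretch is written 5′ to 3′ on the strand of the gene, and capitals mark the match.
Aars, chr8:111033840-111033869: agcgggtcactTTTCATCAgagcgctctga
Gars, chr6:55037960-55037989: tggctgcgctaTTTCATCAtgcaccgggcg
Iars, chr13:49682126-49682155: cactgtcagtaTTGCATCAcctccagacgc
Tars, chr15:11399655-11399684: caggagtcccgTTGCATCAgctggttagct
Yars, chr4:129189895-129189924: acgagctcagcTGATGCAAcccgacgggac
The matches shown began 30 bases before the annotated start in Gars and 15 in Tars, and at bases 10, 8 and 4 of the transcript in Aars, Iars and Yars. Gars, on the plus strand, is given with the 250 bases before its start as the longest context, because none of them lies in an annotated exon.
Gars, chr6:55037751-55038000: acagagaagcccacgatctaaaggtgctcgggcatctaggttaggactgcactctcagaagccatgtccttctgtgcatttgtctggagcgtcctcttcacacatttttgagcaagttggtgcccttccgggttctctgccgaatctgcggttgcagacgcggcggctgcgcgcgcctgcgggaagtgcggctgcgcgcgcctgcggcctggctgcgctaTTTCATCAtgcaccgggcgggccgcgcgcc

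The core of the NRF1 site (GCATGCGC, both strands) had the opposite distribution. It was present in 3 of the 13 mitochondrial windows, in 0 of the 12 cytosolic windows and in 3.05% of all windows. Vars2 held 2 such sites.
Rars2, chr4:34614895-34614924: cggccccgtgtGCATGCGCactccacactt
Vars2, chr17:35667620-35667649: gagtcttttacGCATGCGCctgcgtgtccc
Vars2, chr17:35667594-35667623: tccccgcccacGCATGCGCgcgcacctcgc
Wars2, chr3:99141015-99141044: ccagaggacagGCGCATGCgtagtaagcac
A match describes the letters only, and binding was not measured here. For the windows without a match, these letters were simply not present in the 300 bases searched.

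The cytosolic genes were expressed more strongly than the mitochondrial ones. Per kilobase of transcript, medians over the 16 samples ran from 5.42 to 55.0 CPM for the cytosolic genes, with a middle value of 23.6, and from 0.637 to 13.2 CPM for the mitochondrial genes, with a middle value of 3.97. Qars (the glutamine enzyme) was the highest at 38.4 to 85.0 CPM per kilobase, followed by Nars at 30.3 to 59.4 and Kars at 35 to 52.3. The ranges of both classes met between Cars, the lowest cytosolic gene at 2.94 to 10.3 CPM per kilobase, and Tars2, the highest mitochondrial gene at 7.98 to 20.8. Mars2 was the lowest at 0.339 to 0.946. Neighbours in this order overlapped in every case. Summed over members, the cytosolic genes held 4.65 to 7.62 times the CPM of the mitochondrial genes in a sample.

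The test was the quasi-likelihood test of edgeR, fitted to the 8 condition means of all 16 samples. A gene was called when its p, adjusted over 13305 genes by Benjamini-Hochberg, was under 0.05. Samples of the same set deviated together, so that a fit with the set as a replicate block is given beside it, with the genes it added to the calls. A pair below means samples of the same set. With 2 samples per condition, small changes are hard to detect. Data were simulated for the comparison of antigen without DEX, with 200 of 13305 genes changed at each size. The fit without the block recovered 0% of genes changed by 0.5 on the log2 scale, 28% at 1 and 84% at 2. In the data themselves 16.7% of genes were called for this comparison, so that recovery there can differ.

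The first question was what antigen does to the synthetase genes in sensitized cells. Cytosolic genes lay above 0 and mitochondrial genes below 0 on average. The median log2 fold change after DNP was 0.22 for the 20 cytosolic genes, of which 16 lay above 0, and -0.25 for the 15 mitochondrial genes, of which 13 lay below 0. Over all tested genes the median was -0.00065. In every pair, 14 of the 20 cytosolic genes were higher with DNP, against 29.8% of all tested genes, and 8 of the 15 mitochondrial genes were lower, against 30% of all tested genes. Only Rars and Pars2 were called without the block, 2 of 35, while 16.7% of all genes were called.

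Rars, which charges arginine tRNA and lies on chromosome 11 from 35808381 to 35834506 (GRCm38), was the only cytosolic gene called without the block. Its expression in replicates 1 and 2 was 49.7 and 67.7 CPM in PEP+/+ IgE and 73.3 and 88.4 CPM in PEP+/+ IgE DNP. In PEP-/- cells it was 38.4 and 42.9 CPM after IgE and 61.9 and 65.3 CPM after IgE DNP. Each IgE DNP sample was above its IgE partner, but both treatments overlapped because of the high PEP+/+ IgE replicate 2. In edgeR, Rars rose by 0.55 on the log2 scale (SE 0.13) with an adjusted p of 0.0118. The call was lost in 4 of the 16 fits that left out a library, namely PEP+/+ IgE replicate 1, PEP-/- IgE replicate 1, PEP+/+ IgE DNP replicate 2 or PEP-/- IgE DNP replicate 2, with an adjusted p of at most 0.0589.

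Pars2, the mitochondrial proline enzyme on chromosome 4 from 106651069 to 106655282, fell more than any other member. In PEP+/+ cells its replicates were at 7.13 and 7.46 CPM after IgE and at 3.31 and 2.14 CPM after IgE DNP. The PEP-/- values were 4.74 and 5.76 CPM after IgE and 2.54 and 1.1 CPM after IgE DNP. All IgE DNP samples lay below all IgE samples, a pattern seen in 10.5% of all tested genes. It fell by 1.48 on the log2 scale (SE 0.30, edgeR adjusted p = 0.00582), and the call held without any 1 of the 16 libraries. Pars2 rests on few reads, with 19 to 141 counts per sample.

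With the replicate block, 12 of the 35 members were called, while the share of all genes was 37.9%. The 7 cytosolic calls were all higher with DNP, against 18.6% of all genes called higher. They were Rars, Iars, Gars, Eprs, Nars, Farsb and Dars, with log2 fold changes from 0.30 (Dars, adjusted p = 0.0126) to 0.56 (Rars, adjusted p = 0.000178). Gars, the glycine enzyme, had means of 60.3 CPM after IgE and 78.7 CPM after IgE DNP over 4 samples each (adjusted p = 0.0568 without and 0.00596 with the block, edgeR). Eprs had means of 77.7 and 101 CPM (adjusted p = 0.0825 and 0.0145), and Iars, the isoleucine enzyme, had means of 49.5 and 67.6 CPM (adjusted p = 0.149 and 0.0258). Nars and Farsb had log2 fold changes of 0.36 and 0.31 with the block (adjusted p = 0.00444 and 0.0205).

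The 5 mitochondrial calls with the block were all lower, against 19.3% of all genes called lower. Beside Pars2 they were Hars2 with a log2 fold change of -0.59 (adjusted p = 0.000238), Vars2 with -0.53 (adjusted p = 0.00245), Aars2 with -0.49 (adjusted p = 0.0291) and Wars2 with -0.42 (adjusted p = 0.0369). Hars2, Vars2 and Aars2 were lower in all 4 pairs. Wars2, the mitochondrial tryptophan enzyme, was higher with DNP in 1 of 4 pairs, at 5.77 to 7.99 CPM after IgE DNP and 7.72 to 10.9 CPM after IgE. Without both libraries of raised Lars2 share, the block left 6 of the 12 calls, which were Rars, Gars, Nars, Pars2, Hars2 and Vars2.

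**Figure D1:**
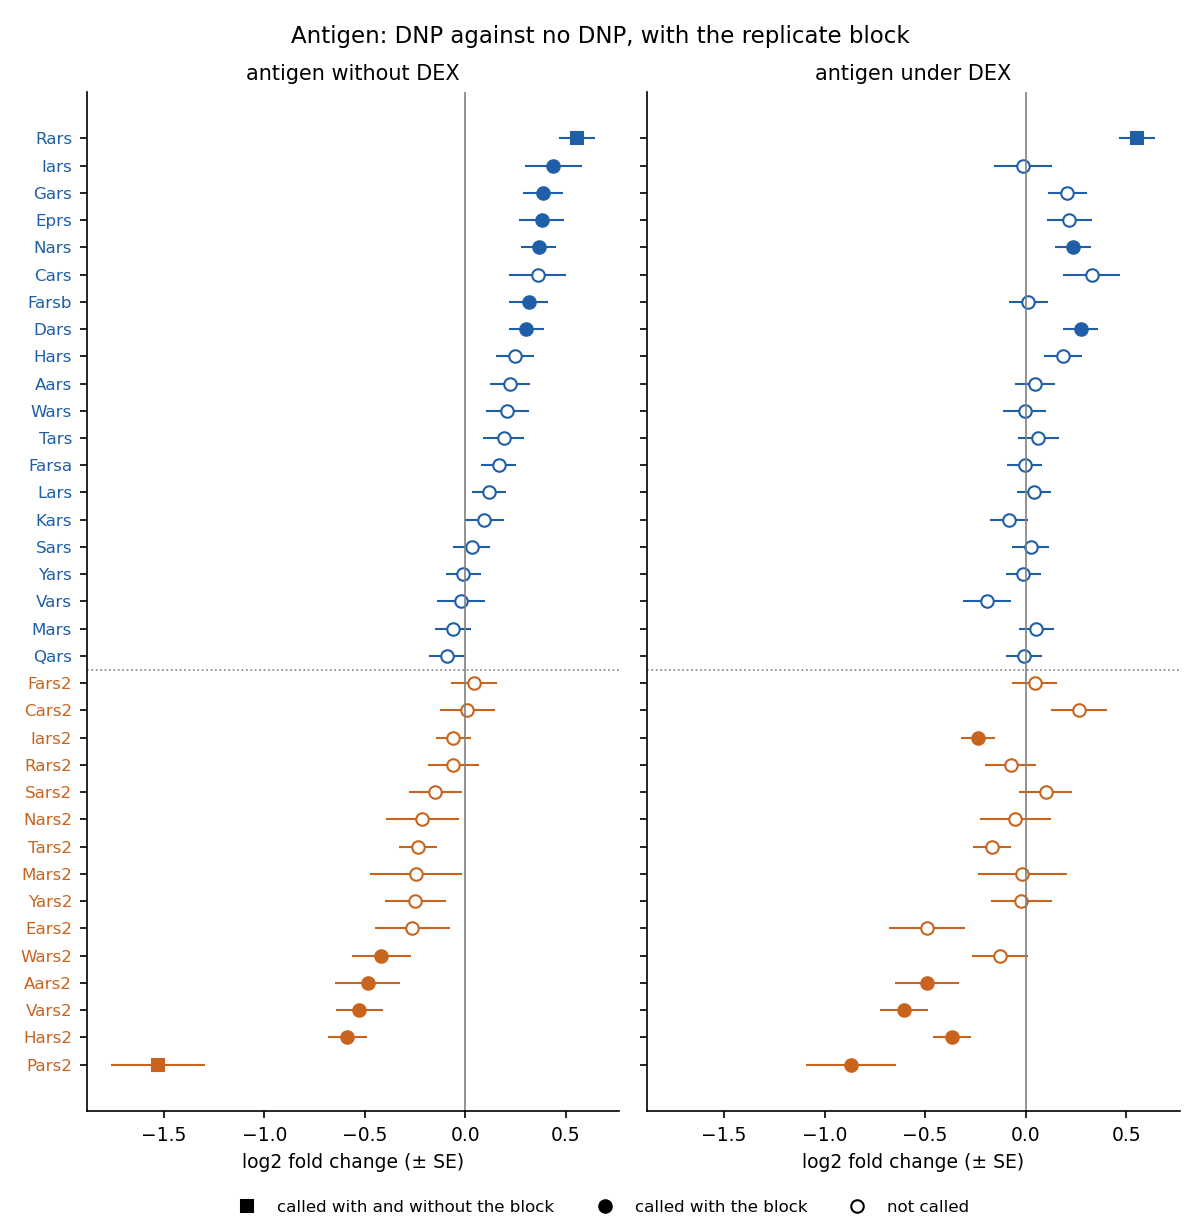
Log2 fold change after DNP for each member, with its standard error, from the fit with the replicate block, without DEX (left) and under DEX (right). Blue genes are cytosolic and orange genes mitochondrial, squares were called with and without the block, filled circles with the block, and open circles were not called, and Rars at 0.56 and Pars2 at -1.53 mark the ends of the left panel.

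The difference between both classes was also taken per sample, as the mean log2 CPM of the cytosolic genes minus that of the mitochondrial genes. It lay between 2.11 and 2.40 in the 4 IgE samples and between 2.75 and 2.86 in the 4 IgE DNP samples. The treatments did not overlap, and their means differed by 0.53, against a pooled standard deviation of 0.16 within conditions. Both classes took part, since the cytosolic mean was higher and the mitochondrial mean lower with DNP in each of the 4 pairs. In PEP+/+ replicate 1, for example, the cytosolic mean went from 6.09 to 6.38 and the mitochondrial mean from 3.70 to 3.52. When only the 27 members with at least 100 counts in every sample were averaged, the difference was 0.37. No p-value is given for this average over members.

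**Figure D2:**
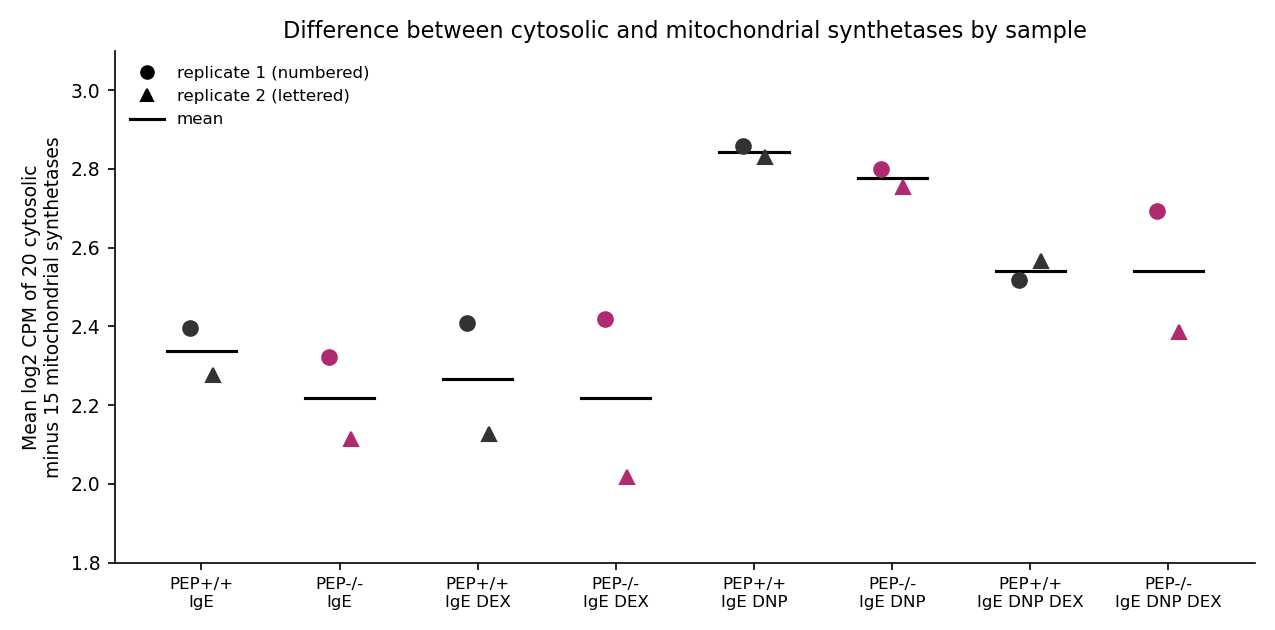
Mean log2 CPM of the 20 cytosolic minus that of the 15 mitochondrial synthetase genes in each sample, by condition, with dark grey for PEP+/+, magenta for PEP-/-, circles for replicate 1, triangles for replicate 2 and lines for the mean of the condition. The 4 IgE DNP samples lie between 2.75 and 2.86, all above the 8 samples without DNP, which reach 2.42.

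Within the cytosolic class, all 10 enzymes of structural class II lay above 0 after DNP, with a median log2 fold change of 0.24. Of the 9 class I enzymes 5 did, with a median of 0.12. Eprs, which holds a domain of each class, was not counted in either. Members of the multi-synthetase complex and free enzymes had nearly equal medians of 0.21 (8 genes) and 0.22 (12 genes). The 5 cytosolic genes with a match to the amino acid response element had a median of 0.23, and the 7 cytosolic genes whose window had none had a median of 0.17. The 3 mitochondrial genes with an NRF1 match lay at -0.54 (Vars2), -0.42 (Wars2) and -0.047 (Rars2).

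Under DEX, Rars again rose with antigen, while the medians of both classes lay nearer 0. The median log2 fold change was 0.039 for the cytosolic genes, with 13 of 20 above 0, and -0.12 for the mitochondrial genes, with 12 of 15 below 0, against -0.025 over all genes. Rars was the only member called without the block, 1 of 35 against 12.6% of all genes, or 7.19% called higher. Its values in replicates 1 and 2 were 48.3 and 49.8 CPM in PEP+/+ IgE DEX and 66.8 and 72.4 CPM in PEP+/+ IgE DNP DEX. In PEP-/- cells they were 39.9 and 41.0 CPM against 58.3 and 65.1 CPM. All IgE DNP DEX samples lay above all IgE DEX samples, which was so for 10.1% of all genes. The rise was 0.56 on the log2 scale (SE 0.13, edgeR adjusted p = 0.0159).

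The Rars call under DEX was lost in 5 of the 16 fits without a library, with an adjusted p of at most 0.0608. These were the fits without any of the 4 IgE DEX libraries and the fit without PEP-/- IgE DNP DEX replicate 2. It was also lost without both libraries of raised Lars2 share (adjusted p = 0.0713). Pars2 was at 5.59 to 6.74 CPM with DEX alone and at 2.5 to 4.82 CPM with DNP and DEX. These groups did not overlap either, which held for 9.33% of all genes in this direction. Its log2 fold change of -0.83 (SE 0.29) was not called without the block (adjusted p = 0.0917, edgeR) and was called with it (adjusted p = 0.00715). Vars2, the mitochondrial valine enzyme, was at 16.4 to 29.5 CPM with DEX alone and at 11.3 to 17.5 CPM with DNP and DEX, and was lower in all 4 pairs. Its log2 fold change of -0.62 was likewise called only with the block (adjusted p = 0.157 without and 0.00118 with it, edgeR).

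The block gave 8 calls under DEX, against 37.6% of all genes. Rars, Dars and Nars were higher, at 0.55, 0.27 and 0.24 on the log2 scale (adjusted p = 0.00026, 0.0231 and 0.0484). Pars2, Vars2, Hars2, Aars2 and Iars2 were lower, and the last 3 had log2 fold changes of -0.37, -0.49 and -0.24 (adjusted p = 0.0074, 0.026 and 0.0413). Of these, Rars, Dars, Pars2, Vars2 and Hars2 were still called without both libraries of raised Lars2 share. Gars, Eprs and Cars, the next cytosolic genes by p-value, had log2 fold changes of 0.20, 0.21 and 0.35 and were not called with the block (adjusted p = 0.111, 0.143 and 0.0796, edgeR). The class difference per sample was 2.02 to 2.42 with DEX alone and 2.39 to 2.69 with DNP and DEX, so that the samples overlapped. The means differed by 0.30, by 0.177 over the 27 members with at least 100 counts in every sample, and by 0.198 without PEP-/- IgE DEX replicate 2.

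Whether DEX altered the response to antigen was tested as an interaction. No member passed (0 of 35 with edgeR, with or without the block, and 0 with DESeq2), against 0.331% of all genes without and 1.57% with the block. Of all genes, 0.0601% had a called interaction above 0 without the block and 0.496% with it. At an unadjusted p under 0.05 there were 0 members without and 2 with the block, against 485 and 1541 of the 13305 genes. The interaction estimates were below 0 for 16 of the 20 cytosolic genes (median -0.13) and above 0 for 11 of the 15 mitochondrial genes (median 0.15). Iars had an estimate of -0.48 (SE 0.26, edgeR adjusted p = 1) and Pars2 one of 0.65 (SE 0.42, adjusted p = 1). A test of this size recovered 5% of genes simulated with an interaction of 1 on the log2 scale.

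DEX alone, in sensitized cells without antigen, raised a pair of cytosolic genes and left the class difference about where it was. Qars and Vars were called without the block, 2 of 35 against 9.37% of all genes, and both were higher. Of all genes 5.4% were called higher and 3.98% lower. Qars was at 123 and 108 CPM in PEP+/+ IgE and at 174 and 163 CPM in PEP+/+ IgE DEX. In PEP-/- cells it was at 157 and 127 CPM without and at 238 and 186 CPM with DEX. All IgE DEX samples lay above all IgE samples, which was so for 8.51% of all genes. Qars thus rose by 0.56 on the log2 scale (SE 0.14, edgeR adjusted p = 0.0293).

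Vars, the valine enzyme, went from 123 and 161 CPM to 176 and 181 CPM in PEP+/+ cells and from 93.3 and 111 CPM to 206 and 155 CPM in PEP-/- cells. It was higher in all 4 pairs, although both treatments overlapped. The change was 0.58 on the log2 scale (SE 0.15, edgeR adjusted p = 0.0294). Each of these calls was lost in 6 of the 16 fits that left out a library, with an adjusted p of at most 0.133 for Qars and 0.125 for Vars. Qars was lost without either PEP+/+ IgE or either PEP+/+ IgE DEX library, PEP-/- IgE replicate 2 or PEP-/- IgE DEX replicate 1. Vars was lost without PEP+/+ IgE replicate 1, PEP-/- IgE replicate 1 or 2, either PEP+/+ IgE DEX library or PEP-/- IgE DEX replicate 1. Without both libraries of raised Lars2 share Vars was not called (adjusted p = 0.052), and Qars was (adjusted p = 0.0443).

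Tars2, the mitochondrial threonine enzyme, was added by the block (0.33 on the log2 scale, edgeR adjusted p = 0.017), as the only mitochondrial call here. The 3 calls with the block, against 26.7% of all genes, were unchanged without both libraries of raised Lars2 share. Medians were 0.0029 for the cytosolic genes and 0.11 for the mitochondrial genes, against 0.0011 over all genes. These medians average both genotypes. Most cytosolic estimates lay below 0 in PEP+/+ and above 0 in PEP-/- cells, such as Mars at -0.38 and 0.12. Others kept their sign, such as Qars at 0.55 and 0.58 and Aars at -0.41 and -0.087. This difference between the genotypes was not tested. Kars and Wars, the next cytosolic genes by p-value, had log2 fold changes of 0.25 and -0.25 (adjusted p = 0.253 and 0.341, edgeR). Fars2 and Wars2, the first mitochondrial genes, had 0.28 and 0.24 (adjusted p = 0.469 and 0.527). The class difference per sample changed by -0.035 on average, less than the spread within conditions, and by -0.135 or 0.065 without replicate 1 or 2 of PEP-/- IgE DEX. The erythroid markers Hba-a1 and Hbb-bs summed to 0.11 to 0.574 CPM in the 8 samples without DEX and to 0.305 to 6.38 CPM in the 8 samples with it, and these ranges overlapped. Their part in the results on DEX was not tested.

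In activated cells, members were called in both directions with DEX. This comparison shares the IgE DNP samples with the first and the IgE DNP DEX samples with the second, so that deviations of these samples enter both. Qars was higher and Wars lower without the block, 2 of 35 against 10.7% of all genes. Qars was at 112 and 110 CPM in PEP+/+ IgE DNP and at 195 and 151 CPM in PEP+/+ IgE DNP DEX, and at 136 and 122 CPM against 229 and 183 CPM in PEP-/- cells. Again both treatments did not overlap, as in 8.81% of all genes. Qars rose by 0.66 on the log2 scale (SE 0.14, edgeR adjusted p = 0.0133) and lost the call only without PEP-/- IgE DNP replicate 2 (adjusted p = 0.0502).

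Wars, the cytosolic tryptophan enzyme, fell. It went from 77.9 and 77.2 CPM to 48.8 and 54.7 CPM in PEP+/+ cells and from 65.9 and 53.1 CPM to 51.5 and 41.3 CPM in PEP-/- cells. Every pair was lower with DEX, with some overlap between the treatments. Wars fell by 0.47 on the log2 scale (SE 0.13, edgeR adjusted p = 0.041). This call was lost in all 16 fits that left out a library, with adjusted p-values from 0.0541 to 0.181, so it stands close to the threshold. Without both libraries of raised Lars2 share its adjusted p was 0.255.

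The block gave 9 calls in activated cells, against 33.3% of all genes. Qars and Vars were higher, and Wars, Aars, Iars and Gars were lower. Vars, with 99.9 to 155 CPM after IgE DNP and 142 to 178 CPM after IgE DNP DEX, had a log2 fold change of 0.41 (edgeR adjusted p = 0.103 without and 0.0161 with the block). The log2 fold changes of the lower genes ran from -0.47 (Wars, adjusted p = 0.00401) to -0.28 (Gars, adjusted p = 0.0415). Aars, the alanine enzyme, was at 94.9 to 130 CPM after IgE DNP and at 69.5 to 89.1 CPM after IgE DNP DEX, without overlap, as in 7.84% of all genes. The mitochondrial genes Wars2, Hars2 and Tars2 were higher, with log2 fold changes of 0.54 (adjusted p = 0.0119), 0.44 (adjusted p = 0.00321) and 0.39 (adjusted p = 0.00553). Wars2 was at 5.77 to 7.99 CPM after IgE DNP and at 9.43 to 10.3 CPM after IgE DNP DEX, again without overlap. Pars2 was at 1.1 to 3.31 CPM and at 2.5 to 4.82 CPM, and its log2 fold change of 0.59 was not called with or without the block (edgeR adjusted p = 0.09 and 0.274). Without both libraries of raised Lars2 share, which both belong to this comparison, only Qars was still called with the block (adjusted p = 0.00242), while the other 8 had adjusted p-values from 0.054 to 0.249.

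The class difference per sample was lower with DEX in activated cells by 0.27 on average. The median log2 fold change was -0.12 for the cytosolic genes, with 14 of 20 below 0, and 0.21 for the mitochondrial genes, with 10 of 15 above 0. The 5 cytosolic genes with a match to the amino acid response element were all below 0, between -0.45 (Iars) and -0.12, with a median of -0.28. The 7 cytosolic genes whose windows held no match had a median of 0.076 and lay between -0.22 and 0.66, with 4 of them above 0. These groups are small, and the difference between them was not tested. All these values average both genotypes, and fewer cytosolic genes lay below 0 in PEP-/- than in PEP+/+ cells. In PEP+/+ cells the 5 genes with a match lay between -0.82 (Iars) and -0.32 (Tars). In PEP-/- cells Aars, Gars and Iars lay at -0.34, -0.19 and -0.079, and Tars and Yars at 0.073 and 0.031.

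**Figure D3:**
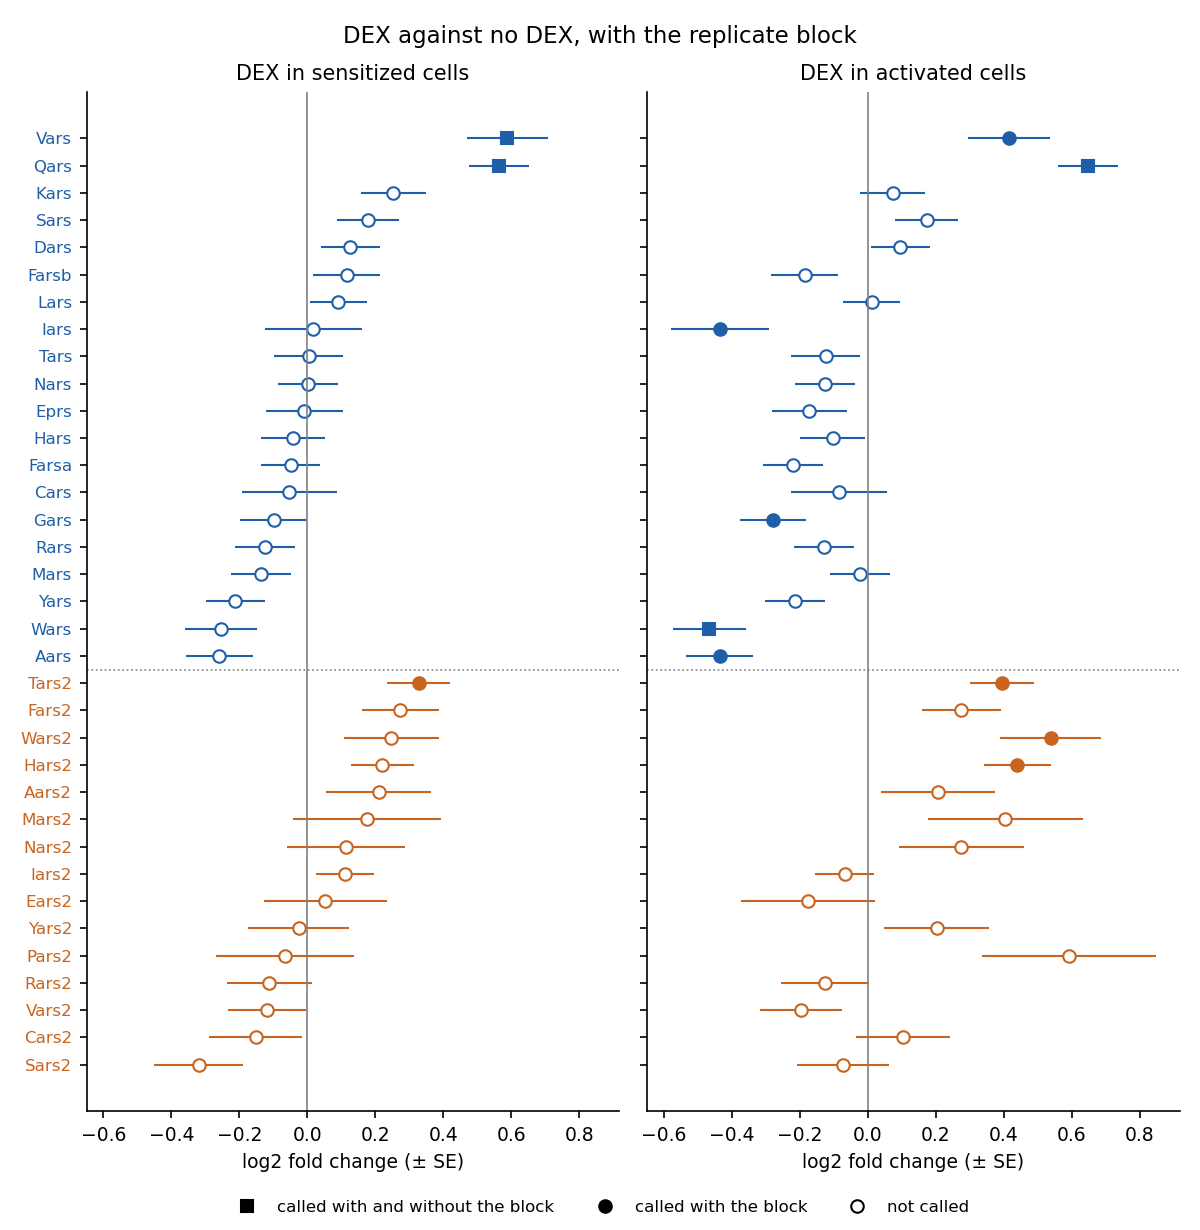
Log2 fold change with DEX for each member, with its standard error, from the fit with the replicate block, in sensitized cells (left) and in activated cells (right), with cytosolic genes in blue, mitochondrial genes in orange, squares for calls with and without the block, filled circles for calls with the block and open circles for no call. Qars is the member that was called in both panels with and without the block, at 0.56 and 0.65.

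The last question was how the synthetase genes differed between the genotypes. Whether the treatments of a genotype within a set shared a culture was not stated. Its 8 samples may therefore not be independent, while the p-values treat them as such. Averaged over the 4 treatments, most members were lower in PEP-/- cells. Of the 20 cytosolic genes 19 lay below 0, with a median log2 fold change of -0.31, and of the 15 mitochondrial genes 12 did, with a median of -0.21, while the median over all genes was 0.024. In all 8 pairs, 11 cytosolic and 4 mitochondrial genes were lower in PEP-/- cells, against 7.67% of all genes. Yars and Mars were called without the block, 2 of 35 against 1.59% of all genes, and both were lower. Of all genes 0.428% were called higher.

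Yars, the tyrosine enzyme, was at 41.9 to 55.5 CPM in the 8 PEP-/- samples (median 46.2) and at 53.4 to 83.6 CPM in the 8 PEP+/+ samples (median 59.9). Every PEP-/- sample was below its PEP+/+ partner, with slight overlap between the genotypes. Averaged over treatments, Yars fell by 0.44 on the log2 scale (SE 0.085, edgeR adjusted p = 0.0308). Mars, the methionine enzyme, was at 43.6 to 60.2 CPM (median 52.7) against 57.5 to 83.3 CPM (median 69.5), also lower in all 8 pairs. It fell by 0.43 on the log2 scale (SE 0.093, edgeR adjusted p = 0.0453). Mars shares 68 exonic bases with Ddit3 on the opposite strand, and the strand setting of the counting was not given in the sources used here.

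Both calls are close to the threshold. Yars kept its call in 4 of the 16 fits that left out a library, those without replicate 1 of PEP+/+ IgE, PEP+/+ IgE DNP or PEP+/+ IgE DNP DEX or without PEP+/+ IgE DNP DEX replicate 2. Mars kept it in none, and the adjusted p reached at most 0.0962 and 0.143. Without both libraries of raised Lars2 share they were not called (adjusted p = 0.0792 and 0.155). With the block they had adjusted p-values of 0.00038 and 0.000412.

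The block raised the calls to 21 of 35, against 17.4% of all genes. Of these, 15 cytosolic and 5 mitochondrial genes were lower, while 9.64% of all genes were called lower. The cytosolic genes were Yars, Mars, Gars, Lars, Cars, Rars, Farsb, Hars, Aars, Farsa, Tars, Wars, Nars, Iars and Eprs, with log2 fold changes from -0.62 (Cars) to -0.24 (Nars) and adjusted p-values from 0.00038 (Yars) to 0.0213 (Eprs). Cars, the cysteine enzyme, had the lowest estimate at -0.62 (SE 0.099), with 9.47 to 20.5 CPM in PEP-/- and 15.6 to 33.2 CPM in PEP+/+ samples. Gars (log2 fold change -0.40) and Lars, the leucine enzyme (-0.33), were lower in all 8 pairs, with adjusted p-values of 0.0548 and 0.059 without and 0.00158 and 0.002 with the block. Lars was at 49.7 to 63.1 CPM in PEP-/- and at 62.8 to 74.9 CPM in PEP+/+ samples, so that the genotypes nearly separated.

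The mitochondrial genes called with the block were Ears2 at -0.67 (adjusted p = 0.00351), Nars2 at -0.48 (0.0181), Sars2 at -0.38 (0.0119), Cars2 at -0.30 (0.0466) and Tars2 at -0.25 (0.0197). Ears2, the glutamate enzyme, was at 2.22 to 4.06 CPM in PEP-/- and 3.78 to 8.67 CPM in PEP+/+ samples. Its adjusted p without the block was 0.129, and that of Cars2 was 0.243. Ears2 shares 89 exonic bases with Ubfd1 and Cars2 shares 422 with Naxd, on the opposite strand. Without both libraries of raised Lars2 share, 14 of the 21 genes were still called with the block. The 7 lost were Eprs, Iars, Nars, Wars, Cars2, Nars2 and Tars2.

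Qars went against the rest of its class. It was at 122 to 238 CPM in PEP-/- samples (median 170) and at 107 to 195 CPM in PEP+/+ samples (median 137), higher in all 8 pairs, against 6.38% of all genes. Its log2 fold change was 0.28 (SE 0.10). It was not called without the block (adjusted p = 0.222, edgeR), was called with it (adjusted p = 0.00871) and was still called without both libraries of raised Lars2 share (adjusted p = 0.0374). It was the only member called higher in PEP-/- cells.

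The class difference per sample was 0.06 lower in PEP-/- cells, against a spread of 0.16 within conditions. This value depends on how the members are summarised, since it was -0.181 with the median over members and -0.16 over the 27 members with at least 100 counts. Without replicate 1 or 2 of PEP-/- IgE DEX it was -0.11 or -0.0095. Complex members and free cytosolic enzymes had medians of -0.31 each. The 5 cytosolic genes with a match to the amino acid response element had a median of -0.36, with all 5 below 0, and the 7 without one had a median of -0.17. Basophil markers also moved with genotype, but not alike in both sets. Their sum was 83.1 to 122 CPM in PEP+/+ and 48.5 to 54.9 CPM in PEP-/- samples of the numbered set, and 19.8 to 40.6 against 30.0 to 45.4 CPM in the lettered set. Their part in the result was not tested.

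**Figure D4:**
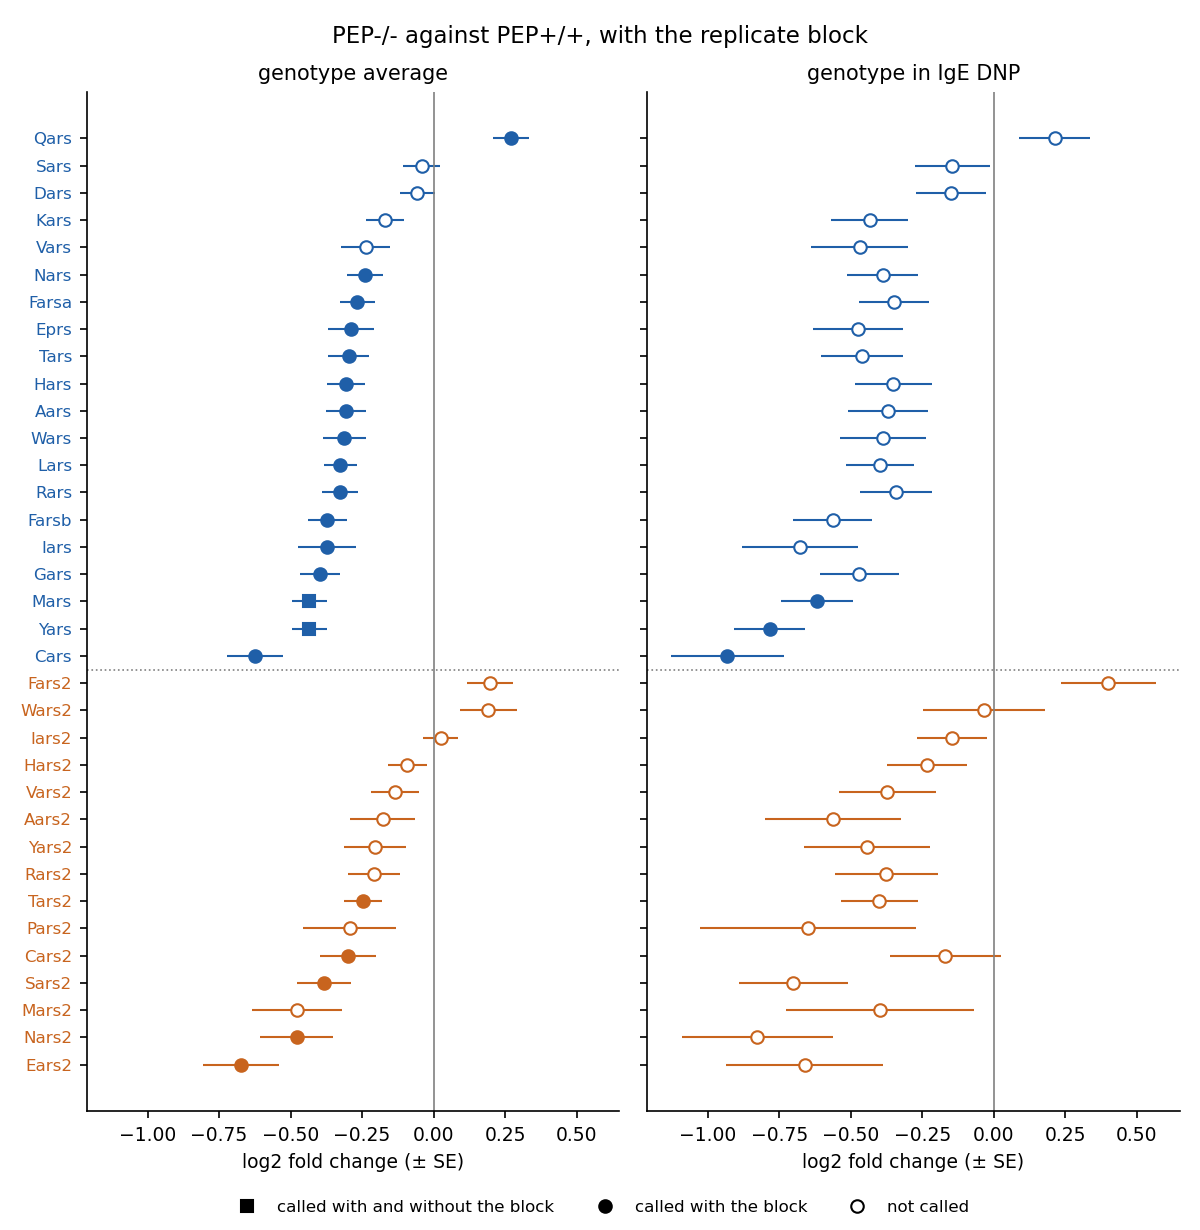
Log2 fold change of PEP-/- against PEP+/+ cells for each member, with its standard error, from the fit with the replicate block, averaged over the treatments (left) and after IgE DNP (right), with cytosolic genes in blue, mitochondrial genes in orange, squares for calls with and without the block, filled circles for calls with the block and open circles for no call. In the left panel 19 of the 20 cytosolic genes lie left of 0 and Qars lies at 0.27.

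Within single treatments the calls were few. No member was called without the block in any of the 4 treatments (0 of 35 with edgeR, against 0.00752% of all genes in each). At an unadjusted p under 0.05 there were 11 members in IgE cells and 13 in IgE DNP cells, all lower in PEP-/- cells. With DEX added there were 1 and 0, and the 1 was Wars2, which was higher (log2 fold change 0.58). Of the 13305 genes 528, 605, 385 and 298 passed in the same order, and DESeq2 called 1 member, Yars, after IgE DNP. The block called Mars after IgE, against 1.69% of all genes, at -0.73 on the log2 scale (edgeR adjusted p = 0.0151). After IgE DNP it called Yars, Mars and Cars, against 1.86% of all genes, with log2 fold changes of -0.78, -0.62 and -0.93 (adjusted p = 0.00828, 0.0238 and 0.0278). None of these 3 was called without both libraries of raised Lars2 share, with adjusted p-values from 0.108 to 0.267.

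The genotype estimates were nearer 0 with DEX. For Mars the log2 fold change was -0.73 in IgE and -0.61 in IgE DNP cells, and with DEX added it was -0.23 and -0.15. Yars had -0.44, -0.79, -0.23 and -0.29 in the same order. The medians over the cytosolic genes were -0.46, -0.42, -0.17 and -0.16. This difference was not tested in sensitized cells. In activated cells it was tested as the interaction of genotype with DEX. No member passed (0 of 35 with edgeR, with or without the block, and 0 of all genes). At an unadjusted p under 0.05 there were 0 members without and 6 with the block, against 95 and 485 of all genes. All 20 cytosolic estimates of that interaction and 13 of the 15 mitochondrial ones lay above 0, with medians of 0.21 and 0.32 against 0.023 over all genes. Those of Yars, Mars and Cars were 0.49, 0.46 and 0.67 (adjusted p = 1 each). The interaction of genotype with antigen, taken without DEX, also gave 0 members with or without the block, 0 at an unadjusted p under 0.05 and 0 with DESeq2.

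**Figure D5:**
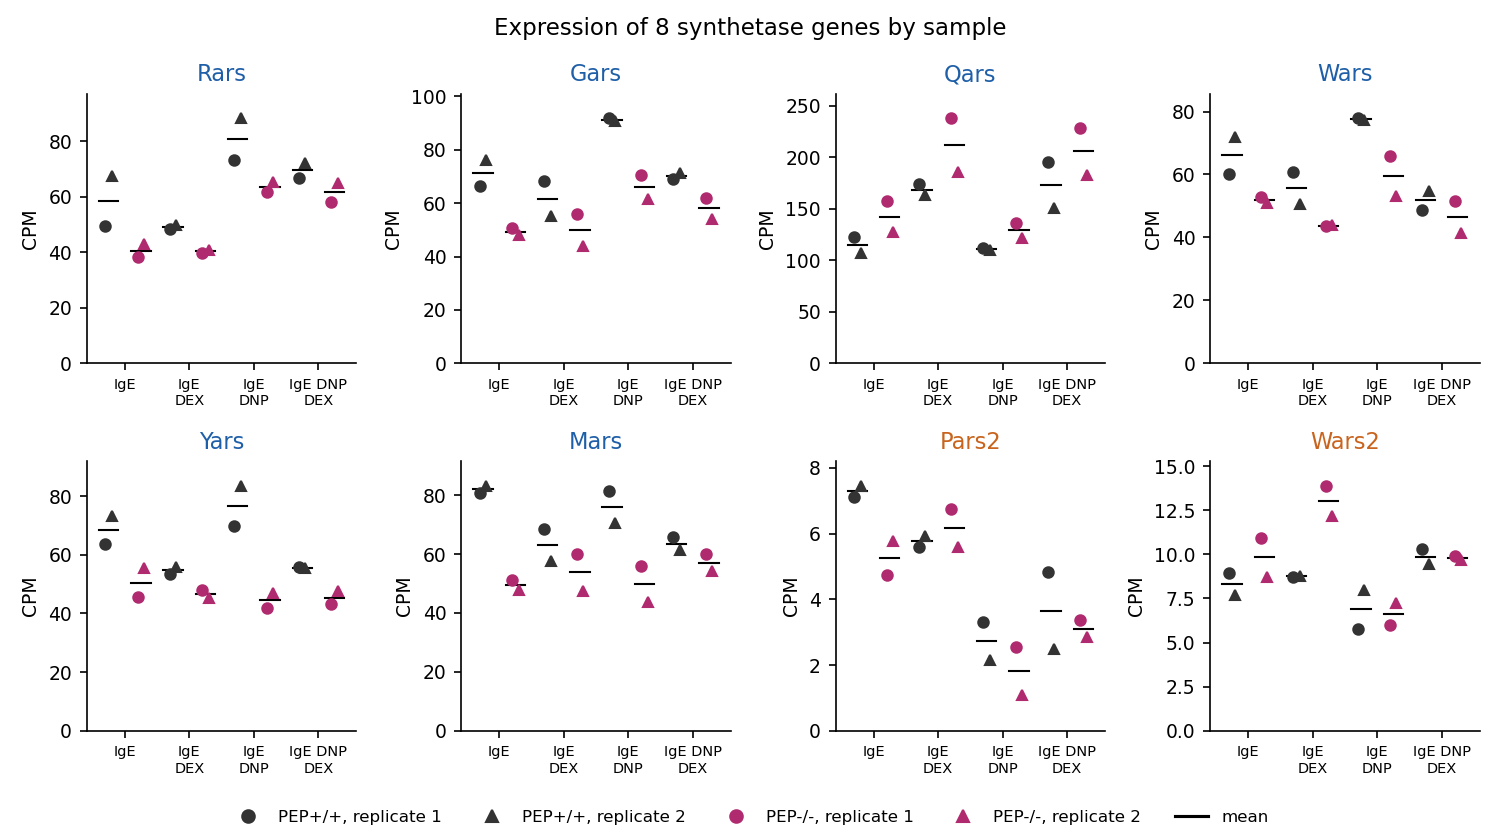
CPM of 8 members in each sample by treatment, with dark grey symbols for PEP+/+ and magenta symbols for PEP-/- samples, circles for replicate 1, triangles for replicate 2 and lines for the mean. Pars2 lies below 5 CPM in all samples with DNP and also, at 4.74 CPM, in PEP-/- IgE replicate 1. Qars is above 150 CPM in all 8 samples with DEX and also, at 157 CPM, in PEP-/- IgE replicate 1.

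Partners of the synthetases were described from a list of 18 genes, of which 17 passed the filter and Aarsd1 did not. Antigen without DEX lowered 3 of the 17 and raised 0 without the block, against 7.58% and 9.07% of all genes. These were Qrsl1 (log2 fold change -0.90, adjusted p = 0.0117) and Gatc (-0.49, adjusted p = 0.0231), which encode subunits of the mitochondrial amidotransferase that completes glutamine tRNA, and the editing factor Prorsd1 (-0.78, adjusted p = 0.0415, edgeR). Under DEX, Qrsl1 was again lower with antigen (-0.94, adjusted p = 0.0137), as the only call, against 5.42% of all genes. The block added Eef1e1, higher, and Pstk and Tsfm, lower, for antigen without DEX (6 of 17 called), and Gatc, lower, under DEX (2 of 17). With the block 37.9% and 37.6% of all genes were called in these comparisons.

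DEX in activated cells raised 2 and lowered 3 of the 17, against 5.67% and 4.99% of all genes. The complex scaffold gene Aimp1 (0.85, adjusted p = 0.00947) and Gatc (0.46, adjusted p = 0.0458) rose. The scaffold gene Eef1e1 (-0.77, adjusted p = 0.0144), the editing factor Dtd1 (-0.77, adjusted p = 0.0364) and the tRNA export gene Xpot (-0.56, adjusted p = 0.0181) fell. In sensitized cells DEX changed 0 of the 17 without the block, with 5 at an unadjusted p under 0.05, and 7 with it, against 9.37% of all genes called without and 26.7% with the block and 2578 of the 13305 at that unadjusted p. The 7 were Aimp1, Gatb and Sepsecs, higher, and Aimp2, Eef1e1, Dtd1 and Xpot, lower. In activated cells the block added Prorsd1 and Mtfmt, both higher, while it called 15.9% of all genes higher. Averaged over treatments, Eef1e1 was lower in PEP-/- cells (-0.90, SE 0.12, edgeR adjusted p = 0.00909), 1 of 17 against 1.16% of all genes called lower. It was at 4.27 to 8.2 CPM in PEP-/- and at 7.42 to 20.4 CPM in PEP+/+ samples. The block added Aimp2, Dtd1 and Xpot, also lower, while it called 9.64% of all genes lower.

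A list of 16 genes of the amino acid response, of which 15 passed the filter and Chac1 did not, was read beside the synthetases. After antigen without DEX, 4 were higher and 1 lower without the block, against 9.07% and 7.58% of all genes. Atf4 itself was at 145 to 240 CPM after IgE and rose to between 334 and 606 CPM after IgE DNP, without overlap, as in 11.6% of all genes (1.35 on the log2 scale, SE 0.18, edgeR adjusted p = 0.000389). The arginine transporter Slc7a1 rose by 3.28 (adjusted p = 0.000764), and the amino acid exchanger subunits Slc7a5 and Slc3a2 rose by 1.31 and 0.42 (adjusted p = 0.028 and 0.0393). Sesn2, a leucine sensor, fell by 1.21 on the log2 scale (adjusted p = 0.000155). Asns, the asparagine synthetase, was not called (0.40, adjusted p = 0.26). Under DEX antigen changed 3 of the 15, with Atf4 and Slc7a1 higher and Sesn2 lower, against 7.19% of all genes called higher and 5.42% lower. The block added Trib3 and Slc7a11, higher, without DEX, and under DEX Ddit3 and Slc7a5, higher, and Mthfd2, lower. It called 37.9% of all genes without DEX and 37.6% under DEX.

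DEX in activated cells lowered 4 of the 15, against 4.99% of all genes, and raised Slc3a2 (1.25, adjusted p = 8.73e-05). The lower genes were the serine and folate enzymes Phgdh (-1.89, adjusted p = 0.000713) and Mthfd2 (-1.23, adjusted p = 0.0148), with Asns (-0.82, adjusted p = 0.0332) and Slc7a5 (-1.25, adjusted p = 0.0473, edgeR). In sensitized cells DEX lowered Phgdh and raised Slc7a11 and Slc3a2, against 3.98% and 5.4% of all genes. The block added Slc7a5, Mthfd2 and Shmt2, lower, in sensitized cells, and Slc7a11, higher, with Sesn2, Shmt2 and Slc7a1, lower, in activated cells. It called 26.7% of all genes in sensitized and 33.3% in activated cells. In PEP-/- cells 4 of the 15 were lower on average, against 1.16% of all genes, and 0 were higher. They were Asns (-1.11, SE 0.15, adjusted p = 0.0102), Phgdh (-0.99, adjusted p = 0.0222), Shmt2 (-0.62, adjusted p = 0.0207) and Mthfd2 (-0.89, adjusted p = 0.0438, edgeR). Asns was at 2.64 to 4.51 CPM in the PEP-/- samples, all below the 5 to 16.4 CPM of the PEP+/+ samples, which was so for 0.323% of all genes. The block added Atf4, Psat1 and Slc7a5, also lower, while it called 9.64% of all genes lower. In these bulk samples, fewer cells of a type and less RNA per cell cannot be told apart.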

How the data were processed

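RNA of 16 BMMC samples was sequenced by the authors as paired-end reads from a stranded mRNA kit. Per the study's methods and the submitters' processing notes, reads were aligned with TopHat2 to GRCm38 and counted on genes with HTSeq, and the authors deposited raw counts per gene and sample without normalization. The 5 summary rows of HTSeq were left out. Reads on no gene or on several made up 9.35% to 13.5% of uniquely placed reads in the numbered set and 15.2% to 19.1% in the lettered set. HTSeq's strand setting was not given in the sources used here, so members that overlap a gene on the other strand are uncertain. The reads carry no molecular identifiers.

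Samples were grouped by the labels. Counts were scaled by TMM and tested with edgeR 4.0.16 (glmQLFit and glmQLFTest, R 4.3.3) on 13305 genes kept by filterByExpr (minimum count 10), with 8 condition means and 8 residual degrees of freedom (7 with the block). Log2 CPM used a prior count of 2. The replicate block has the numbered and lettered sets as its levels. The labels do not say what the sets share, and the pairing was taken from the data, since deviations from condition means correlated within a set for all 28 pairs of conditions (r = 0.453 to 0.799). The common coefficient of variation was 0.312 without and 0.133 with the block. DESeq2 1.42.0 served as an alternative, and the test was checked on simulated counts. Lengths are those of the longest principal transcript in GENCODE M21, and promoter windows are from RefSeq. Beside the stretches printed, a further stretch is not reported here.

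The members, lists and tests were chosen with earlier results of these data known. Members were named by rule, as the 4 cytosolic and 2 mitochondrial genes with the smallest p in each main comparison, any called against its class, and any called in an interaction or within a treatment. The other members called with the block were named after their values were seen.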

Additional observations from a re-analysis of the deposited data

Results flagged for a closer look

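Lars2, the mitochondrial leucine enzyme that was kept out of the list, stood out in 2 libraries. It took 2.31% of gene counts in PEP+/+ IgE DNP replicate 1 and 1.32% in PEP-/- IgE DNP DEX replicate 2. In the 4 IgE libraries, which had neither DNP nor DEX, the share was 0.359% to 0.582%, and a share above 2 times the highest of these was singled out. The replicate of either library in the same condition was not raised. Within its set, each of these libraries also had the largest share of reads on no gene or on several (13.5% and 19.1%). What set the share of Lars2 was not tested.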

How the results depend on the processing

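The counts of called members depend on the fit. With the replicate block they were 12 for antigen without DEX, 8 for antigen under DEX, 9 for DEX in activated cells, 21 for the genotype average, 1 for genotype in IgE and 3 for genotype in IgE DNP, and the block changed no other count by more than 1.5 times. DESeq2 gave 4, 2, 4 and 12 for the first 4 of these and 1 for genotype in IgE DNP. Without a filter the counts were 1 for antigen without DEX, 0 for antigen under DEX, 0 for DEX in sensitized cells, 1 for DEX in activated cells and 1 for genotype. With only the conditions compared, they were 1 for antigen without DEX and for both comparisons of DEX. With DESeq2's size factors the genotype count was 1, and with at least 10 counts in every sample it was 4. A log2 fold change of at least 1 left 1 member (Pars2) for antigen without DEX and 0 for the other 4 main comparisons, with or without the block. Leaving out both libraries of raised Lars2 share, chosen after seeing the data, gave 0 for antigen under DEX, 1 for each comparison of DEX and 0 for genotype. With the block it gave 6 for antigen without DEX, 5 for antigen under DEX, 1 for DEX in activated cells, 14 for the genotype average and 1 for genotype in IgE. These fits have conditions with a lone sample, which was assumed to vary like the others. Leaving out each library in turn gave 1 to 2 members for antigen without DEX, 0 to 1 for antigen under DEX, 0 to 2 for each comparison of DEX and 0 to 1 for genotype. Apart from the fewer samples or genes that some settings use, the cause was not tested. The class difference for antigen without DEX was 0.374 with the 27 members of at least 100 counts, and the other 125 recomputed class differences moved by less than the spread within conditions. Some of these left out a library that the comparison does not use, and such values could hardly move. Of the recomputed log2 fold changes of named members, 1674 kept their sign and their side of the threshold, 83 lost and 92 gained a call, and 0 changed sign. Depth limits the mitochondrial genes most, with 19 counts at the lowest.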

Other observations

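Hars and Hars2, the cytosolic and mitochondrial histidine enzymes, lie head to head on chromosome 18 and share 195 exonic bases on opposite strands. After antigen without DEX their estimates pointed in opposite directions. Hars had a log2 fold change of 0.25 (adjusted p = 0.258 without and 0.0533 with the block, edgeR), and Hars2 had -0.57 (adjusted p = 0.192 and 0.000238). Hars2 was at 22.7 and 30.1 CPM in PEP+/+ IgE and at 16.4 and 23.7 CPM in PEP+/+ IgE DNP, where Hars was at 61.0 and 65.8 CPM and at 75.9 and 74.7 CPM.

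The E-box (CACGTG, both strands), which MYC and MiT factors are known to bind, was present in 4 of the 12 cytosolic windows (Aars, Farsb, Iars and Tars), in 1 of the 13 mitochondrial windows (Ears2) and in 8.09% of all windows. Aars, Iars and Tars held it together with the amino acid response element core.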
